A study of Rattus norvegicus with 3 samples.

Results

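The soluble fraction of Rat1 fibroblasts carrying Myc was compared with that of Rat1 fibroblasts carrying the vector, protein by protein, through deposited abundance ratios of Myc over vector. Members were all protein entries of the soluble table. It held 620 entries, of which 542 had a ratio, out of 950 distinct entries with a ratio in the 3 fractions of the study. The other 78 carried codes for peaks that were not detected. Rat1 is an established rat fibroblast line, and both lines were deprived of serum for 12 h. How Myc was driven and whether either line was a clone or a pool are not given in the sources used here. From each line 2.5 mg of soluble protein was tagged with the isotope-coded affinity tag (ICAT), a reagent that binds cysteine, so proteins are seen only through peptides that hold a cysteine. Myc protein got the heavy and vector protein the light form. Both were mixed once, with no exchange of the labels and no second mixture. No p-value is therefore given, and ± marks the authors' SD for a ratio inside this mixture. A difference between the cells cannot be told apart from one between the reagents or between the cultures.

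Myc is a transcription factor that binds DNA with its partner Max, preferring the E-box CACGTG, and is known for raising genes of ribosome production, protein synthesis, glycolysis and nucleotide synthesis. In fibroblasts without serum, high Myc also sensitises cells to apoptosis. The soluble fraction holds mainly cytosolic proteins, together with what other compartments release when cells are broken. Proteins are named here by a reading of their Swiss-Prot entry names from general knowledge, not a look-up, with the entry name printed beside the value. By suffix 263 quantified entries were human, 110 mouse and 0 rat, so peptides of rat cells are reported under related species.

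Most soluble proteins had more signal in the heavy, Myc form. The median ratio was 1.344, 385 of 542 entries (71.0%) lay above 1, and the 5th to 95th percentiles ran between 0.518 and 2.98. To be called higher, an entry needed a ratio of 1.5 or above, and to be called lower one of 0.667 or below. The natural log of the ratio also had to exceed 2 relative errors, taken as SD over ratio. By this rule 166 entries were higher with Myc (30.6% of 542) and 44 were lower (8.12%), together 210 (38.7%). The centring of the deposited ratios is not stated, so the rule was also run on ratios divided by the median. There 70 entries were higher (12.9%) and 92 lower (17.0%), together 162 (29.9%). The share of higher among all called entries was thus 79.0% as deposited and 43.2% relative to the median. All 70 were among the 166, and all 44 among the 92. Counts of calls in a protein group are given below on both scales, to be read against these shares of all entries. They count entries, so a protein with a human and a mouse entry counts as 2.

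**Figure D1:**
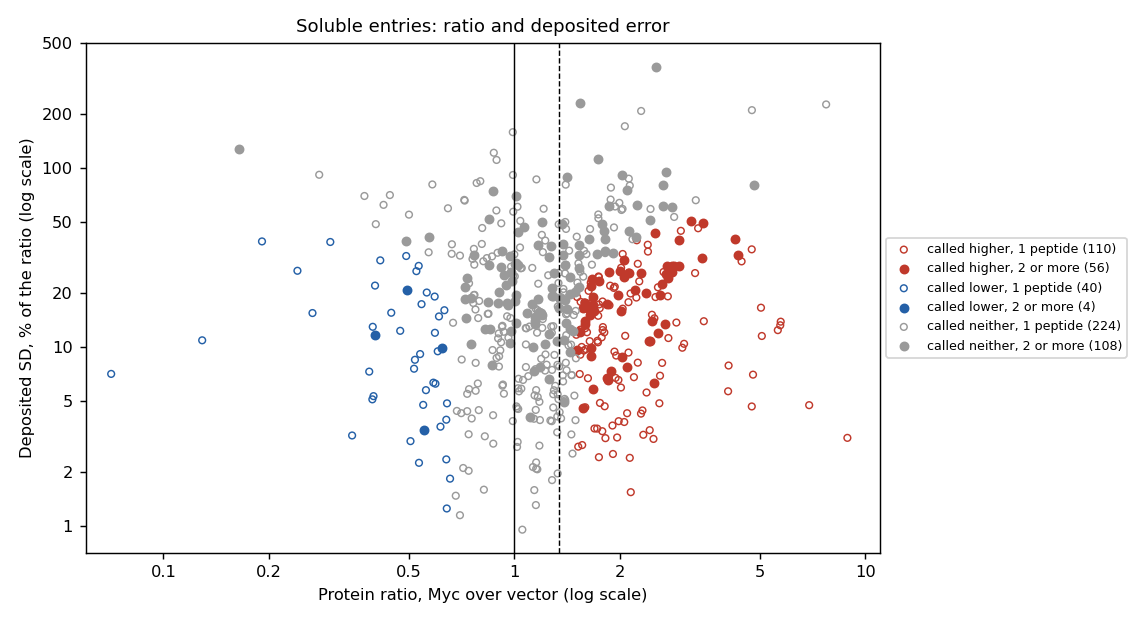
Each point is 1 soluble entry, with its ratio of Myc over vector on a log axis and its deposited SD as a percent of the ratio on a log axis; open points rest on 1 peptide, filled points on 2 or more, and colours give the call as deposited. The solid line is a ratio of 1 and the dashed line the median of 1.344; of the 44 lower calls, 40 are open points.

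Lower calls rested on few peptides. Of the 542 entries 374 (69.0%) rested on 1 peptide and 180 on 1 peptide line. Lower calls made up 10.7% of entries with 1 peptide, 3.85% of those with 2 and 0% of the 64 with 3 or more, while higher calls made up 29.4%, 30.8% and 37.5%. Entries whose best identification probability was under 0.9 were lower in 25.9% of 54 cases, against 6.15% of the 488 others, and had a smaller median SD, 6.77% against 16.1% of the ratio. The highest ratio of the table, AK040951_1 at 8.89 ± 0.275, and the lowest, AK074941_1 at 0.071 ± 0.005, each came from 1 line.

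The labelled cell type was checked by its markers. Of 6 fibroblast markers, 3 had soluble entries, namely SPARC, thrombospondin 1 and galectin-1, while vimentin, fibronectin and collagen alpha-1(I) had none. There were 0 entries for the other marker names chosen, which were keratins and E-cadherin, 7 serum and blood proteins and 2 muscle proteins. The check covers those names only, not every protein of such tissues. No entry name of Myc itself was found.

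Glycolytic enzymes, which turn glucose into pyruvate and lactate, were mostly higher with Myc. Of 15 quantified entries 10 were called higher and 0 lower, against 30.6% and 8.12% of all entries, with a median of 2.19 against 1.344 for the fraction. Relative to the median 5 were higher and 1 lower, against 12.9% and 17.0% of all entries. Pyruvate kinase (KPY1_HUMAN), which makes pyruvate and ATP in the last step, was the best covered of them. Its ratio was 1.89 ± 0.137 from 152 lines, and its 6 distinct peptides lay between 1.56 and 2.27, all above the fraction median. Lactate dehydrogenase A (LDHM_MOUSE), which reduces pyruvate to lactate, was at 2.61 ± 0.505, and lactate dehydrogenase B (LDHH_HUMAN) at 2.19 ± 0.148. Aldolase A, which splits fructose bisphosphate, was called higher under its mouse entry (ALFA_MOUSE, 3.43 ± 1.08) and its human entry (ALFA_HUMAN, 2.94 ± 1.16). The 4 peptides of the human entry were far apart, at 3.07, 1.67, 0.710 and 0.241. Alpha enolase (ENOA_HUMAN) was at 2.98 ± 1.32 and phosphoglycerate mutase 1 (PMG1_MOUSE) at 2.00 ± 0.532. Phosphofructokinase, the enzyme that commits sugar to the pathway, lay below 1 without being called as deposited, at 0.922 ± 0.119 for the liver form (K6PL_MOUSE) and 0.403 ± 0.195 for the muscle form (K6PF_HUMAN), each from 1 peptide. Glyceraldehyde 3-phosphate dehydrogenase was not called under its own entry (G3P_MOUSE, 1.15 ± 0.086), which rests on 1 measurement of 1 peptide. Entries named for its testis form were at 4.33 ± 1.42 (G3PT_HUMAN) and 2.12 ± 0.196 (G3PT_MOUSE). Which form of the enzyme in these rat cells gave their peptides was not tested. The 2 peptides of the human testis entry were apart, at 4.49 from 1 measurement and 1.52. The mouse testis entry rests on 25 measurements of 1 peptide.

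**Figure D2:**
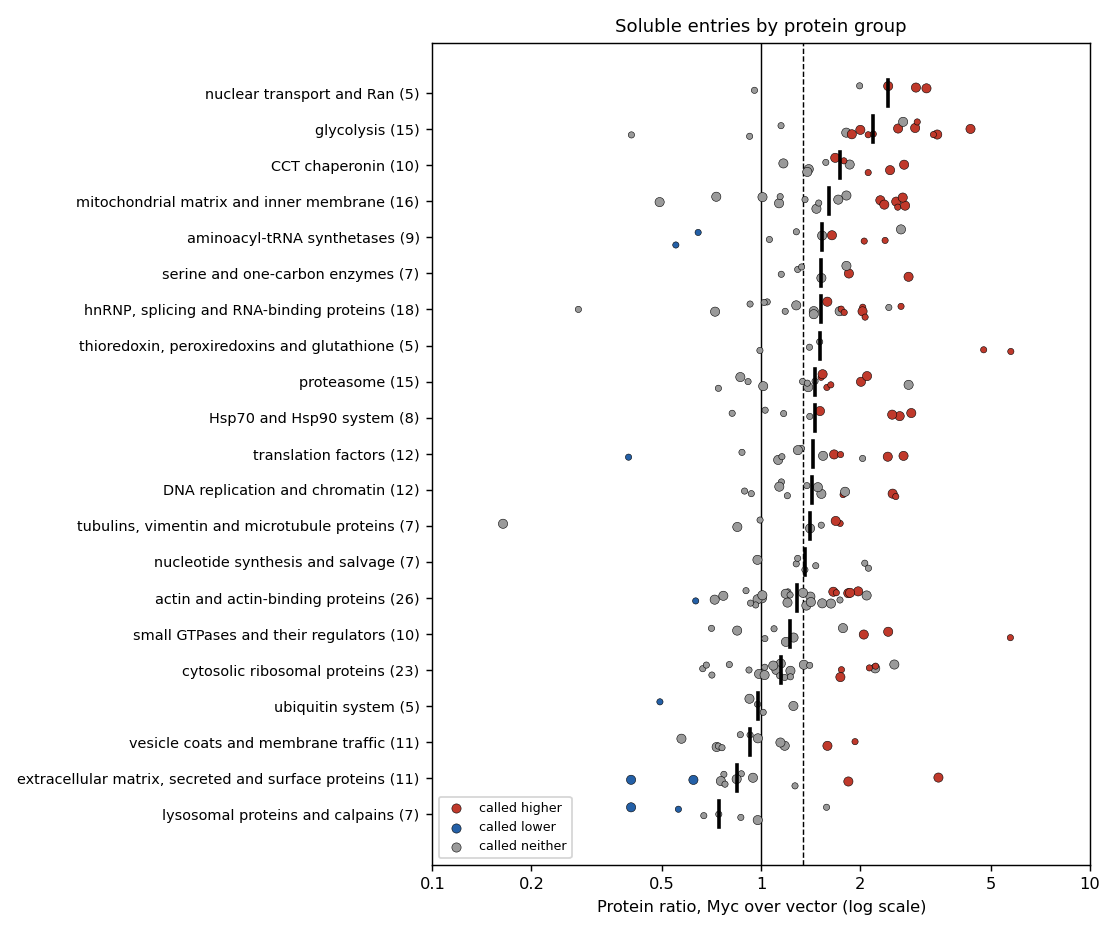
Ratios of Myc over vector on a log axis for protein groups with 5 or more quantified soluble entries, 1 point an entry, larger for 2 or more peptides and coloured by the call as deposited; vertical scatter has no meaning and an entry can belong to more than 1 group. Thick bars are group medians, the solid line is 1 and the dashed line the fraction median. Glycolysis lies to the right at 2.19. The matrix and surface group (0.842) and the group of lysosomal proteins and calpains (0.743) lie to the left.

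Parts of the protein synthesis machinery differed from each other. Among 12 translation factors 4 were called higher and 1 lower, shares near the 30.6% and 8.12% of all entries, with a median of 1.43. On the scale of the fraction median 2 were higher and 1 lower. Elongation factor 2 (EF2_HUMAN), which moves the ribosome along the message, had the most peptides of the fraction and was at 2.71 ± 0.689. Its 8 distinct peptides ran between 0.998 and 3.55. Initiation factor 5A (IF5A_HUMAN), which helps ribosomes over difficult sequences, was at 2.43 ± 0.262, with 4 peptides between 1.80 and 3.14. Elongation factor 1-alpha 1 (EF11_HUMAN), the carrier of aminoacyl-tRNA, was at 1.67 ± 0.399 and initiation factor 2 gamma (IF2G_HUMAN) at 1.74 ± 0.300. The lower call was initiation factor 3 subunit 8 (IF38_HUMAN), at 0.395 ± 0.051 from 1 peptide.

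Cytosolic ribosomal proteins, the structural parts of the ribosome, had a median of 1.15, below that of the fraction. Of 23 entries 4 were called higher and 0 lower, a smaller share of higher calls than the 30.6% of all entries, and relative to the fraction median 2 were higher and 2 lower. The 4 were S17 (RS17_HUMAN, 2.23 ± 0.419), L30 (RL30_HUMAN, 2.13 ± 0.051), L17 (RL17_MOUSE, 1.75 ± 0.085) and L22 (RL22_HUMAN, 1.74 ± 0.406), and each rested on 1 distinct peptide. Members with more peptides were both near 1 and above it. S11 (RS11_HUMAN) was at 1.11 ± 0.045 with 4 peptides between 1.07 and 1.27, L4 (RL4_MOUSE) at 0.985 ± 0.228 and S3a (RS3A_HUMAN) at 1.09 ± 0.167. L10 (RL10_HUMAN), with 37 measurements, was at 2.22 ± 0.909, its 2 distinct peptides at 1.35 and 1.63, and was not called. Ribosomal protein SA (RSP4_HUMAN) was at 2.54 ± 9.26, its peptides at 3.69 and 0.513, and was not called either. Aminoacyl-tRNA synthetases charge tRNAs, and their list also holds p43 of the multisynthetase complex. Of its 9 entries 3 were called higher and 2 lower, the share of higher calls near the 30.6% of all entries, against 8.12% lower. Relative to the fraction median 2 were higher and 2 lower, against 12.9% and 17.0%. Aspartyl- (SYD_MOUSE, 2.38 ± 0.132), glycyl- (SYG_MOUSE, 2.06 ± 0.078) and arginyl-tRNA synthetase (SYR_MOUSE, 1.64 ± 0.248) were higher. The aspartyl- and glycyl-tRNA synthetase values each rest on 1 measurement of 1 peptide. Glutaminyl-tRNA synthetase (SYQ_HUMAN, 0.643 ± 0.031) and p43 of the multisynthetase complex (MCA1_HUMAN, 0.550 ± 0.026) were lower, each from 1 line.

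**Figure D3:**
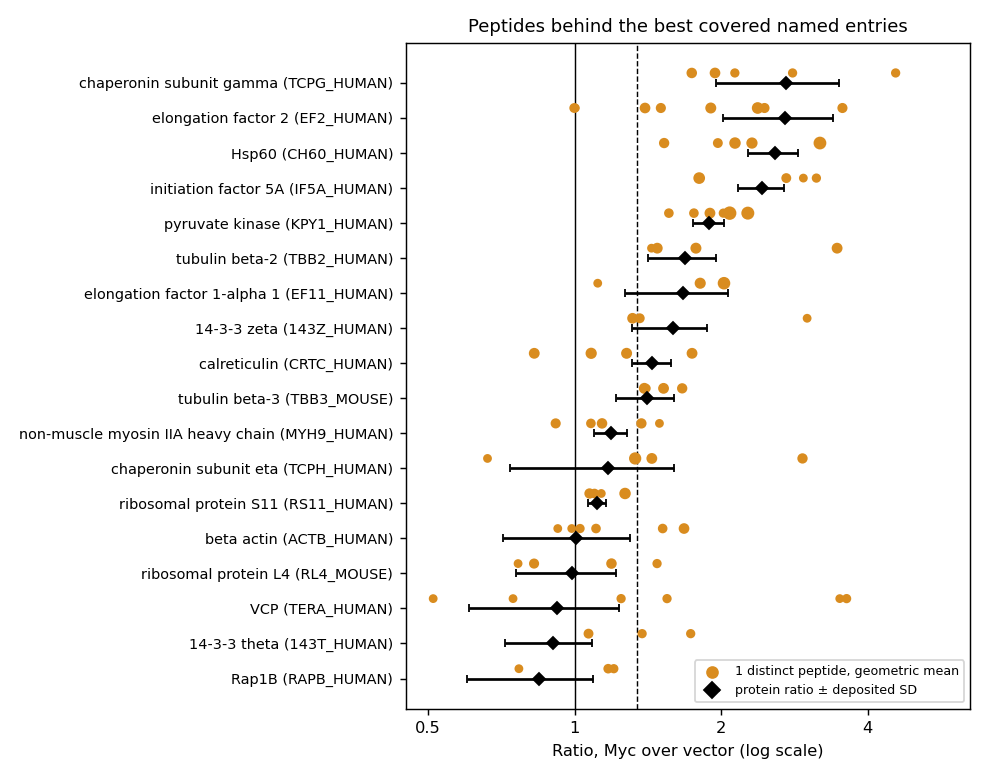
The 18 named soluble entries with most peptides, ordered by ratio of Myc over vector on a log axis; diamonds with bars are the protein ratio ± deposited SD and circles above them the geometric means of single distinct peptides, larger with more measurements. The solid line is 1 and the dashed line 1.344; the 6 pyruvate kinase circles lie between 1.56 and 2.27, while those of VCP lie between 0.512 and 3.62.

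Chaperones, which help other proteins fold, gave higher and no lower calls. Of 10 entries of the cytosolic CCT chaperonin 5 were called higher and 0 lower, against 30.6% and 8.12% of all entries, with a median of 1.73. Relative to the fraction median 3 were higher and 0 lower, against 12.9% and 17.0% of all entries. Subunit gamma (TCPG_HUMAN) was at 2.72 ± 0.772 with all 5 peptides at 1.74 or above. Subunit delta (TCPD_HUMAN) was called higher at 1.68 ± 0.287, yet its 3 peptides were at 1.67, 0.758 and 0.263. Of 8 Hsp70 and Hsp90 entries 4 were called higher and 0 lower, against 30.6% and 8.12% of all entries. The 4 were the Hsp90 cofactor p23 (P23_HUMAN, 2.50 ± 0.156), Hsp90-alpha (HS9A_HUMAN, 2.64 ± 0.587), Hsp90-beta (HS9B_HUMAN, 1.51 ± 0.145) and Hsc70 (HS7C_HUMAN, 2.86 ± 0.810). The 3 peptides of Hsp90-alpha ran between 0.770 and 2.64. On the scale of the fraction median 3 of the 8 were higher and 0 lower. The mouse entry of Hsc70 (HS7C_MOUSE) was at 1.17 ± 0.263. Cyclophilin A, a prolyl isomerase, was higher under both its entries, at 4.26 ± 1.71 (CYPH_HUMAN, 3 peptides between 2.11 and 4.62) and 2.43 ± 0.083 (CYPH_MOUSE). Proteasome subunits, which degrade proteins, gave 6 higher and 0 lower calls among 15 entries, against 30.6% and 8.12% of all entries, with a median of 1.46. On the scale of the fraction median 1 of the 6 was still higher and 2 other subunits were lower. The 1 higher on both scales was PA28 gamma (PSE3_HUMAN), an activator cap, at 2.10 ± 0.161, and the ATPase S7 (PRS7_HUMAN) was at 2.01 ± 0.317. The 2 lower there were alpha-4 (PSA4_HUMAN, 0.864 ± 0.068) and the ATPase S6 (PRS6_HUMAN, 0.741 ± 0.015).

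Mitochondrial matrix enzymes found in the soluble fraction gave 6 higher and 0 lower calls among 16 entries, against 30.6% and 8.12% of all entries, with a median of 1.61. All 6 were also higher relative to the fraction median and 2 others lower, against 12.9% and 17.0% of all entries. The matrix chaperonin Hsp60 was at 2.57 ± 0.308 (CH60_HUMAN, 83 lines, 5 peptides between 1.53 and 3.19) and 2.60 ± 0.179 (CH60_MOUSE). Mitochondrial malate dehydrogenase (MDHM_HUMAN), a citric acid cycle enzyme, was at 2.37 ± 0.474 and NAD isocitrate dehydrogenase alpha (IDHA_HUMAN) at 2.69 ± 0.359. Mitochondrial aldehyde dehydrogenase was at 2.74 ± 0.660 (DHAM_HUMAN) and 2.30 ± 0.598 (DHAM_MOUSE). Aconitase (ACON_HUMAN) was at 1.13 ± 0.113, and ornithine aminotransferase (OAT_HUMAN, 0.730 ± 0.106) and long-chain acyl-CoA dehydrogenase (ACDL_MOUSE, 0.491 ± 0.192) were lower relative to the median. How these proteins came to be in the soluble fraction was not tested.

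Enzymes of biosynthesis form several small groups. Of 7 serine and one-carbon enzymes 2 were called higher and 0 lower, a share of higher calls near the 30.6% of all entries, and 1 and 0 relative to the fraction median. They were S-adenosylmethionine synthetase (METK_HUMAN, 2.81 ± 0.730), which makes the methyl donor, and cytosolic serine hydroxymethyltransferase (GLYC_HUMAN, 1.85 ± 0.120), which passes carbon from serine to folate. Of 7 enzymes of nucleotide synthesis and salvage 0 were called in either direction, with a median of 1.36. IMP dehydrogenase 2 (IMD2_HUMAN), the branch point to guanine nucleotides, was at 1.36 ± 0.257 and the pyrimidine enzyme CAD (PYR1_HUMAN) at 1.29 ± 0.070. Methylthioadenosine phosphorylase (MTAP_MOUSE), which salvages a by-product of polyamine synthesis, was at 1.66 ± 0.147, with 3 peptides between 1.38 and 2.04. HMG-CoA synthase (HMCS_HUMAN), an early enzyme of sterol synthesis, was at 2.74 ± 0.523. In the thioredoxin group 2 of 5 were called higher and 0 lower on both scales, against 30.6% and 12.9% of all entries higher. The 2 were thioredoxin (THIO_MOUSE, 4.75 ± 1.66) and macrophage migration inhibitory factor (MIF_MOUSE, 5.74 ± 0.792), a cytokine, each from 1 peptide. The median of this group was 1.51 as first listed and 2.14 after 2 names were added by hand.

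Nuclear transport factors and RNA-binding proteins also gave higher and no lower calls as deposited. Of 5 transport entries 3 were called higher, with a median of 2.43, and 2 relative to the fraction median, against 30.6% and 12.9% of all entries. They were RanBP1 (RANG_HUMAN, 2.43 ± 0.262, 31 lines of 1 distinct peptide), a cofactor of the Ran GTPase, nuclear transport factor 2 (NTF2_HUMAN, 2.96 ± 0.834), which imports Ran, and transportin (IMB2_HUMAN, 3.18 ± 1.61), an import receptor. The 2 peptides of transportin lay on opposite sides of 1, at 3.35 and 0.826. For nuclear transport factor 2, peptides at 3.09 and 3.16 had 1 measurement each, with best probabilities of 0.762 and 0.674. Its peptide with 4 measurements and a best probability of 0.9999 was at 1.43. Of 18 entries of RNA-binding and splicing proteins 7 were higher and 0 lower, against 30.6% and 8.12% of all entries, and 3 and 1 relative to the fraction median. Higher on both scales were the La protein (LA_HUMAN, 2.66 ± 0.696), hnRNP U (ROU_HUMAN, 2.03 ± 0.178) and U2AF (U2AF_HUMAN, 2.07 ± 0.238). At the low end hnRNP K (ROK_HUMAN, 0.724 ± 0.157) was the 1 lower relative to the median, and Sm D3 (SMD3_HUMAN, 0.278 ± 0.254) was not called. That list holds DDB1 and RUV1, caught by its patterns alone. In the replication and chromatin group 3 of 12 were higher and 0 lower, a share of higher calls near the 30.6% of all entries, and 1 and 1 relative to the fraction median. The 3 include flap endonuclease 1 (FEN1_MOUSE, 1.77 ± 0.200), which trims Okazaki fragments. Its 12 include both entries of the chaperone Hsp105, caught by the pattern for histones. PCNA (PCNA_HUMAN), the sliding clamp, was at 1.80 ± 0.797 and did not pass, and the helicase subunits MCM3, MCM4, MCM5 and MCM6 lay between 0.933 and 1.38.

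Proteins of the extracellular space, the endoplasmic reticulum and the lysosome had the lowest group medians. Of 11 matrix, secreted and surface entries 2 were called higher and 2 lower as deposited, against 30.6% and 8.12% of all entries, with a median of 0.842. The 2 lower were thrombospondin 1 and cathepsin D, a lysosomal protease that is counted again in the lysosomal group below. Relative to the fraction median 0 were higher and 7 lower, against 12.9% and 17.0% of all entries. The 11 entries are 8 proteins by entry name, and SPARC and galectin-1 each give 2 of the 7. The others are thrombospondin 1, cathepsin D and the human entry of integrin beta-1 (ITB1_HUMAN, 0.770 ± 0.150). Thrombospondin 1 (TSP1_HUMAN), an adhesive matrix protein, was at 0.622 ± 0.061. SPARC, a collagen-binding matrix protein, was at 0.842 ± 0.150 (SPRC_HUMAN) and 0.776 ± 0.063 (SPRC_MOUSE), and galectin-1, a secreted lectin, at 0.754 ± 0.141 (LEG1_HUMAN, 47 lines) and 0.870 ± 0.036 (LEG1_MOUSE). These 4 entries were lower relative to the median but not as deposited. Higher as deposited were follistatin-related protein 1 (FSL1_HUMAN, 3.46 ± 1.70), whose 2 peptides were at 3.64 and 0.924, and lysyl hydroxylase 2 (PLO2_MOUSE, 1.84 ± 0.318), which modifies collagen. Among 4 folding proteins of the endoplasmic reticulum 2 were lower and 0 higher on both scales, against 8.12% and 17.0% of all entries lower. Collagen prolyl hydroxylase alpha-1 (P4H1_MOUSE) was at 0.494 ± 0.103, with peptides at 0.555 and 0.429, and protein disulfide isomerase A3 (PDA3_HUMAN) at 0.642 ± 0.008, while calreticulin (CRTC_HUMAN, 75 lines) was at 1.44 ± 0.134. Of 7 lysosomal proteins and calpains 2 were lower and 0 higher, against 8.12% and 30.6% of all entries, with a median of 0.743. Relative to the fraction median 5 were lower. The value of 0.743 is that of the human entry of calpain 2 (CAN2_HUMAN, 0.743 ± 0.168, 1 peptide), which is not a lysosomal protein and is 1 of the 5. The mouse entry of calpain 2 (CAN2_MOUSE) was at 1.58 ± 0.543. Cathepsin D (CATD_HUMAN), an aspartic protease that the patterns placed in the matrix group too, was at 0.402 ± 0.047 and prosaposin at 0.669 ± 0.091 (SAP_HUMAN) and 0.560 ± 0.032 (SAP_MOUSE). Cathepsin B (CATB_MOUSE, 38 lines) was at 0.976 ± 0.256.

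Cytoskeletal, GTPase and vesicle groups had fewer higher calls relative to the fraction median than as deposited, as did all entries. Of 26 actin-related entries 5 were called higher and 1 lower, a smaller share of higher calls than the 30.6% of all entries, with a median of 1.28. On the scale of the fraction median 0 were higher and 2 lower, so none of the 5 was left. Beta actin (ACTB_HUMAN) was at 1.005 ± 0.292. Cofilin 1 (COF1_HUMAN), which severs filaments, was at 1.97 ± 0.381 with 4 peptides between 1.52 and 2.04, and talin (TALI_MOUSE), the link to integrins, at 0.632 ± 0.101. Tubulin beta-2 (TBB2_HUMAN) was higher at 1.69 ± 0.268 as deposited. Of 10 small GTPase entries 3 were higher and 0 lower, near the 30.6% of all entries, and 2 and 1 relative to the fraction median. Vesicle coat proteins, with a sodium pump chain caught by the pattern, had a median of 0.925. Of these 11 entries 2 were higher and 0 lower as deposited, against 30.6% and 8.12% of all entries. Relative to the fraction median 0 were higher and 3 lower, against 12.9% and 17.0% of all entries. The 2 were sorting nexin 5 (SNX5_MOUSE, 1.93 ± 0.181) and the tether p115 (VDP_MOUSE, 1.59 ± 0.212), and the 3 the clathrin adaptor AP-2 alpha-1 (A2A1_HUMAN, 0.741 ± 0.024), the sodium pump chain (A1A1_HUMAN, 0.732 ± 0.178) and the coat protein Sec24D (S24D_HUMAN, 0.572 ± 0.234). Of 5 ubiquitin entries 0 were higher and 1 lower on both scales, against 8.12% and 17.0% of all entries lower. The 1 was the proteasome-bound protease USP14 (UBPE_MOUSE, 0.492 ± 0.158), from 1 peptide with 2 measurements, at 0.443 and 1.003. The 1 entry of the apoptosis list, chloride intracellular channel 4 (CLI4_MOUSE), was at 0.993 ± 0.564.

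Distinct peptides of 1 protein were often apart. In 137 entries with 2 or more quantified peptides, the highest and lowest peptide were a median of 1.64-fold apart, and 48 entries (35.0%) were over 2-fold apart. Of 371 peptides 294 (79.2%) lay within 2 deposited SD of their protein ratio. Among the 45 of these entries called higher, every peptide was above 1 in 37 and above the fraction median in 27, and in the 3 called lower every peptide was below 1. Repeat measurements of 1 peptide spread too, by a median of 1.88-fold over 413 peptides with 2 or more measurements. In 65 sequences with methionine seen oxidised and plain, the median log2 difference, oxidised minus plain, was -0.25, and the oxidised form was the higher in 23. VCP (TERA_HUMAN), an ATPase that extracts ubiquitinated proteins, had a ratio of 0.921 ± 0.314 while its 6 peptides ran between 0.512 and 3.62.

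The labelled form in which each peptide was identified was examined after the ratios were known. It comes from the same labelled peptides of the same mixture as the ratios, so it is not an independent check of them. Of all 3608 soluble lines 57.6% were of the heavy, Myc form, against 45.9% of lines in the chromatin-enriched fraction and 46.6% in the crude mitochondrial one. The share was 64.8% (937 of 1445 lines, exact 95% interval 62.3 to 67.3%) in entries called higher, 53.5% in those not called and 27.8% (25 of 90 lines, 18.9 to 38.2%) in entries called lower. These intervals cover counting error only, and lines of 1 entry are not independent. Counted once an entry, 68.7% of higher, 55.1% of uncalled and 27.3% of lower entries had mostly heavy lines. By group, the share was 64.2% (58.3 to 69.8%) for glycolysis, 67.7% (61.1 to 73.8%) for translation factors and 65.1% (58.4 to 71.4%) for mitochondrial matrix proteins. It was 45.3% (39.7 to 51.1%) for ribosomal proteins, 40.2% (30.1 to 51.0%) for lysosomal proteins and calpains, and 33 of 103 lines (23.2 to 42.0%) for matrix and surface proteins. Some groups did not follow their ratios: the 5 ubiquitin entries, with a median of 0.975, had 18 of 20 lines in the heavy form, and the CCT chaperonin, with a median of 1.73, had 53.2%. Across 332 sequences identified in both forms, the median log2 difference in ratio between lines identified as heavy and as light was 0.

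**Figure D4:**
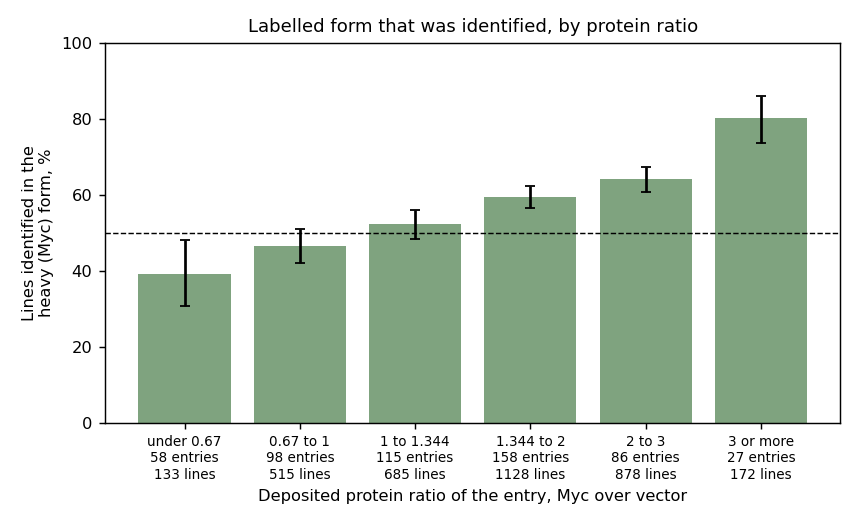
Percent of peptide lines identified in the heavy, Myc form, by the deposited ratio of their entry, with exact 95% binomial intervals as bars and the number of entries and lines under each; the dashed line is 50%. The share is 39.1% in entries under 0.67 and 80.2% in entries at 3 or more.

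Human and mouse entries of 1 protein shared no peptide sequence here, so they give a comparison within the mixture. There were 25 such pairs, a median of 1.45-fold apart. Of these 14 lay within 1.5-fold, 19 on the same side of 1 and 15 on the same side of the fraction median, and 0 were called in opposite directions. Since 71.0% of all entries lay above 1, a pair can share that side whatever its protein. Under a rule of 1.5-fold and 2 combined errors 3 differed, namely NCAM, Hsc70 and the entries named for testis glyceraldehyde 3-phosphate dehydrogenase. NCAM (NCA1), a neural cell adhesion molecule, was at 1.33 ± 0.026 for the human and 0.593 ± 0.113 for the mouse entry.

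**Figure D5:**
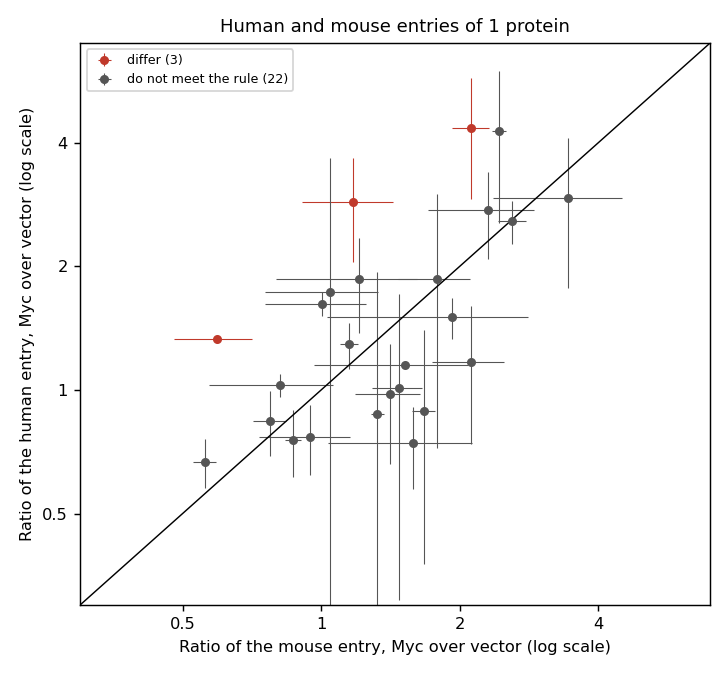
Ratios of Myc over vector for the human (vertical) and mouse (horizontal) entry of 25 proteins on log axes, with deposited SD as bars, which are cut at the frame where longer, and the diagonal of equal ratios. The 3 pairs that differ by 1.5-fold and 2 combined errors are red.

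Promoters of the rat genes were searched for the E-box that Myc and Max prefer, CACGTG, which reads the same on both strands. Of 283 gene symbols read from soluble entries 243 had a promoter of 300 bases in the RefSeq table (build GRCr8), and 25 of them (10.3%) held the motif, against 7.08% of the 27457 genes and 6.42% of the 33469 promoters in the table. The share was 7 of 76 (9.21%) for genes with an entry called higher, 1 of 12 (8.33%) for genes with one called lower and 17 of 155 (11.0%) for genes with none called. Relative to the median it was 5 of 32 (15.6%) for higher and 3 of 28 (10.7%) for lower. A match is a description of letters in this window and not a binding site. The promoters printed were chosen after the values of their proteins were seen, 2 from higher proteins and 1 from a lower one, to show the motif, in capitals, on both sides. Eef2 encodes elongation factor 2 (chr7:9189189-9189488, minus strand), Ldha lactate dehydrogenase A (chr1:106507842-106508141, plus strand) and Ctsd cathepsin D (chr1:206968772-206969071, minus strand).
Eef2: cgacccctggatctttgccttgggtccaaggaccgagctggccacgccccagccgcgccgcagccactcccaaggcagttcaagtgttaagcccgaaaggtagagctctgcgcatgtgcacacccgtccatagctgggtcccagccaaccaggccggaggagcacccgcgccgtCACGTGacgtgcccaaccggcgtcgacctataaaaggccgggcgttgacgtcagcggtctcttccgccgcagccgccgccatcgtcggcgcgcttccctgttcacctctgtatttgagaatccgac
Ldha: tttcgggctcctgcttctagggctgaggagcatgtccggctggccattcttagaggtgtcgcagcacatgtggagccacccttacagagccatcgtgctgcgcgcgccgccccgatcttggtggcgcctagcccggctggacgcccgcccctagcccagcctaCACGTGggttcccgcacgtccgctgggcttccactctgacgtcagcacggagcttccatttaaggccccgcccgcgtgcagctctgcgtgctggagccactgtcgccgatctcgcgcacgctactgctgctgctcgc
Ctsd: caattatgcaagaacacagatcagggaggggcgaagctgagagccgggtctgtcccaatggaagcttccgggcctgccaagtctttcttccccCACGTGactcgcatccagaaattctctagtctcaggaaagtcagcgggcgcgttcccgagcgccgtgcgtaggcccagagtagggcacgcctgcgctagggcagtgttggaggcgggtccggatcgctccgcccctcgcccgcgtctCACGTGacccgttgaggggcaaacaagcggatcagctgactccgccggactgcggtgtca

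Some soluble entries were also seen elsewhere. Of the 542 soluble entries 133 also had a ratio in another fraction, 95 in the chromatin-enriched and 55 in the crude mitochondrial one, and 409 had a ratio here alone. Those shared had a median soluble ratio of 1.32 and those found here alone 1.36, with 27.8% and 31.5% called higher. Of the 78 coded entries, 31 had the large code that stands beside 0 and -1, 25 the code 0 and 22 the code -1, and the authors' legend does not say which code stands for which missing form. The heavy form made up 29 of 40 lines (72.5%, 56.1 to 85.4%) of entries with the large code and 14 of 32 (43.8%, 26.4 to 62.3%) of those coded 0. Among the coded were spermidine synthase (SPEE_HUMAN) and aldose reductase (ALDR_HUMAN), both with the large code, and phenylalanyl-tRNA synthetase beta (SYFB_HUMAN and SYFB_MOUSE), both with the code 0.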

How the data were processed

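Per the labels' protocols and the authors' legend, spectra were searched against a rat, mouse and human NCBI database and identified with PeptideProphet and ProteinProphet, and the deposited ratios and their SD were made by the authors with ASAPRatio. Tool versions and centring are not given in the sources used here. The deposited table holds 1 line per peptide with its probability (a fraction at or above 0.5015), a protein entry, the peptide, its ratio, and the protein ratio, SD and number of peptides as text. That number counts oxidised and plain forms of 1 sequence apart. A question mark in some cells is not explained there. Entries coded as not detected (0, -1 or a large number) were left out, and 17.9% of the 3608 lines carried a code.

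Peptide ratios were averaged as geometric means per sequence. Tables were handled with pandas 2.3.3 and numpy 2.4.6 under Python 3.11.15, intervals came from scipy 1.17.1, and figures from matplotlib 3.10.9.

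Members and lists were chosen with earlier results of these data known. The 32 lists are patterns on entry names and were used as written, and 48 names added and 6 dropped after their ratios were seen form an alternative. They held 256 quantified entries, and the keratin and serum list held 0. Named entries are all members of lists of up to 12, in longer lists the 5 highest, the 5 lowest and those with 3 or more peptides, the 20 highest and 20 lowest entries with 2 or more peptides, the 20 with most peptides, and those whose peptides differ most. Examples chosen after their values were seen are LDHM_MOUSE, LDHH_HUMAN, G3PT_MOUSE, RL22_HUMAN, NCAM, AK040951_1, AK074941_1 and the coded entries. The analyses of identified form, oxidation, depth, species pairs and promoters were also added after the data were seen.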

Additional observations from a re-analysis of the deposited data

Results flagged for a closer look

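In 2 cases an entry was called in opposite directions in the soluble fraction and in another fraction, and the difference itself was not tested. Initiation factor 2 gamma (IF2G_HUMAN), a subunit of the factor that brings initiator tRNA to the ribosome, had a ratio of Myc over vector of 1.74 ± 0.300 in the soluble and 0.617 ± 0.086 in the chromatin-enriched fraction, a quotient of 2.82. The entry AK013776_1, which is not named, was at 1.56 ± 0.155 in the soluble and 0.551 ± 0.030 in the crude mitochondrial fraction, a quotient of 2.82. Each of the 4 values rests on 1 peptide.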

How the results depend on the processing

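The counts higher and lower were 166 and 44 as deposited, and 70 and 92 relative to the median. With a fold of 2 they were 89 and 18, and 31 and 50. With the fold alone they were 222 and 58, and 109 and 121. Entries with at least 2 peptides (168) gave 56 and 4, and 19 and 20, and a median of 1.46. Among alternatives chosen after seeing the data, raising errors to the spread between peptides gave 103 and 24, and 41 and 57. At least 2 peptide lines (362 entries) gave 122 and 16, and 43 and 55. Raising errors to their median was tried first and changed no call, which its construction fixes, since 2 such errors (0.307) are below the log of the fold (0.405), so it says nothing of stability. With 3 errors, a probability of at least 0.9 or merged entry names, counts stayed within 1.5 times, and merging by shared peptide merged 0 entries. Peptide medians carry no deposited error and were called by the fold alone. They gave 211 and 60, and 93 and 120, beside 222 and 58, and 109 and 121, for protein ratios with the fold alone. Subunit delta of the chaperonin (TCPD_HUMAN) reversed, at 0.758 as the median of its peptides, because 2 of its 3 peptides are below 1. Of 227 named entries 51 moved by more than their SD that way. Of 145 recomputed medians of 21 lists 13 moved, and 5 lists changed side of the fraction median at least once. For the lists as edited by name, the thioredoxin median was 2.14 against 1.51, and that of lysosomal proteins and calpains 0.859 against 0.743. The alternative limited to entries with a peptide in a rat RefSeq protein was not run, since no protein table was used here. No paired analysis was possible because there is 1 mixture. Single-peptide entries limit precision, and no difference has a replicate check.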
